A study of Mus musculus with 24 samples.

Results

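The genes described here are 51 genes of the cell cycle and of DNA replication, chosen by name from textbook function. The choice was made with earlier results of these data known. The 51 genes were read through every probe set of the array annotated to them. They were divided by role into 19 replication genes, 25 mitotic genes and 7 genes of cell cycle entry and checkpoints, out of 8251 genes that have a probe set of their own in the array annotation. Of the 51 genes, 42 were tested (16 replication, 19 mitotic and 7 entry and checkpoint genes), out of 6461 genes tested in all. Mcm6, Prim1, Bub1, Aurka and Tacc3 did not exceed the intensity filter, Tyms was covered only by probe sets that name a further gene as well, and Ccnb1, Bub1b and Hmmr were matched to no probe set by the annotation used. Of the dim members, Mcm6 reached at most 103, Prim1 186, Bub1 179 and Tacc3 131 on any array, and Aurka, a mitotic kinase, reached 377 on 1 bleomycin array of BALB-c at 14 d. Among bleomycin lungs of both strains the mean level of the mitotic genes was lowest at 24 h, when Cdk1 fell. It was highest at 14 d, when 11 of 19 rose in the mean of both strains (7.12% of all probe sets called higher). Kif11 is in this level and this count. It passed the intensity filter through the BALB-c bleomycin arrays of 14 d alone, so it had to be high there. At 14 d 17 of 42 members were called in BALB-c (13.3% of all probe sets) and 3 of 42 in C57BL-6J (7.43%). A test of the difference between the strains in the bleomycin effect called 1 of 42 at that time, Dut (7.43% of all probe sets). Compared directly after bleomycin at that time, the strains differed in 7 of 42 members, near the share of all probe sets (15.7%).

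A dividing cell first copies its DNA and then separates the copies, and the genes for these tasks are switched on in turn. Replication genes, which are driven by E2F factors at the start of S phase, encode the MCM helicase that opens the DNA, the clamp Pcna, polymerases and ligases, and enzymes that make nucleotides. Mitotic genes follow in G2 phase, when FOXM1 and other factors act at CHR and CCAAT elements in their promoters. These genes encode the kinase Cdk1 with its cyclins, spindle motors, checkpoint proteins and the machinery of cytokinesis. Few cells of an adult lung divide, and after an injury such as bleomycin, a drug that breaks DNA, damaged cells arrest through p53 and its target Cdkn1a before surviving cells divide.

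The study asked, by its title, why genetic background alters sensitivity to lung fibrosis, and it measured total RNA of whole mouse lung on 24 Affymetrix arrays. There were 12 groups of 2 arrays: lungs of the strains C57BL-6J and BALB-c, each after bleomycin at 1.5 U per kg or after saline, both instilled into the trachea, taken at 24 h, 72 h or 14 d. The labels give no genotype beyond the strain, no age and no sex, and do not say whether arrays a and b of a group came from separate animals, so the p-values measure only the spread between these arrays. The descriptions of some BALB-c saline arrays also name bleomycin, and the titles were followed. The number before the array letter in the titles differs between all arrays of 24 h and all those of 72 h and 14 d. At 24 h it also differs between the bleomycin and saline arrays of BALB-c, and between the 2 bleomycin arrays of C57BL-6J. Its meaning is not given, so in comparisons with 24 h it cannot be told apart from time. In whole lung, fewer cells of a type and less RNA per cell cannot be told apart.

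Median intensity per array lay between 313 and 408, and the arrays of a pair correlated across probe sets with r from 0.926 to 0.979 (genes are not independent replicates). The least alike pairs were the bleomycin arrays of 14 d, with r of 0.926 in BALB-c and 0.938 in C57BL-6J. The C57BL-6J saline arrays of 24 h stood apart through their brightest probe set (78641 and 43230, against at most 21462 elsewhere), and only their titles carry the suffix s1, whose meaning the labels do not give, so that it and this control group cannot be told apart. Array a of C57BL-6J bleomycin at 14 d had the lowest median intensity (313). Its title alone carries the suffix s2a, whose meaning is not given either. Of 15 probe sets that separated the strains by over 1 log2 unit on all other arrays, 14 to 15 lay on the opposite side on each of the 4 saline arrays of 72 h, which therefore go against their strain labels. H2-Ea, an MHC class II gene that was bright on the other BALB-c arrays (2917 to 6068), read 89.5 and 48.3 on the BALB-c pair and 4821 and 3622 on the C57BL-6J pair of these saline arrays, by their labels. Main results that rest on these 4 arrays are given as labelled, without them and with their strain labels exchanged. The mean effect over both strains does not depend on which strain label they carry, and comparisons among bleomycin arrays do not use them.

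Promoters of members that carry the results are shown with the motifs that name each class of gene. Each stretch is the 150 bases before the first listed gene start in RefSeq (build GRCm38.p6), written 5′ to 3′ on the strand of the gene, with capitals for matches, on either strand, to the CHR (TTTGAA, or TTCAAA on the opposite strand), the E2F site (TTTCGCGC or TTTGGCGC, or GCGCGAAA or GCGCCAAA) and the CCAAT box (CCAAT, or ATTGG). No match in these stretches shared a base with another. Cdk1, Ccnb2, Top2a and Cdc20 are shown as mitotic genes that were called in several comparisons, Cks1b as the entry gene called most often, and Uhrf1 and Mcm5 as replication genes, the first called and the second not.
Cdk1, chr10:69352913-69353062, minus strand: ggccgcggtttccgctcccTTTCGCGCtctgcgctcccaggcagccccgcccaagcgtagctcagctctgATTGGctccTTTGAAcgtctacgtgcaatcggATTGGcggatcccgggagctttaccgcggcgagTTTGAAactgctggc
Ccnb2, chr9:70421555-70421704, minus strand: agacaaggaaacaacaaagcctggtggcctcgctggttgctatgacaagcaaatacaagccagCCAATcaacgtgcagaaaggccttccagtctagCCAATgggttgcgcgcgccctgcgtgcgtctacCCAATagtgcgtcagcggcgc
Top2a, chr11:99024190-99024339, minus strand: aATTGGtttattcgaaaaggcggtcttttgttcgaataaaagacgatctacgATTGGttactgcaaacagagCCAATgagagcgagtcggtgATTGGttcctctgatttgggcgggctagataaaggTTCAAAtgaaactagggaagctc
Cdc20, chr4:118437344-118437493, minus strand: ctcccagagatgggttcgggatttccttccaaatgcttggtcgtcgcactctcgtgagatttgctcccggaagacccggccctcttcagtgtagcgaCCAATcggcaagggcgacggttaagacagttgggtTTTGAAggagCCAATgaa
Cks1b, chr3:89418292-89418441, minus strand: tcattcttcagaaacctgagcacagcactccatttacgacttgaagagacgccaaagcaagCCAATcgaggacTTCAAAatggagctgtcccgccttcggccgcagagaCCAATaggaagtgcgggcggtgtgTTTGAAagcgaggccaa
Uhrf1, chr17:56303187-56303336, plus strand: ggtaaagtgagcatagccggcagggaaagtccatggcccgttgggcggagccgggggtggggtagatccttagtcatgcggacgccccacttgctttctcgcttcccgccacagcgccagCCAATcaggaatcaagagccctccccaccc
Mcm5, chr8:75109359-75109508, plus strand: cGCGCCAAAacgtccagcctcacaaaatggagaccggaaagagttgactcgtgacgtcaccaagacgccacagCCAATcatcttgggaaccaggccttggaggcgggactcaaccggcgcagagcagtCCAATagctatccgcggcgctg

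Cdk1 carried the CHR with its first base 15 and 71 bases before the start, CCAAT boxes at 48 and 80 and an E2F site at 131. Cdc20 had a CHR at 18 with CCAAT boxes at 8 and 53, and Top2a had a CHR at 23 with 4 CCAAT boxes. Ccnb2 had 3 CCAAT boxes, at 21, 54 and 87 bases, and a CHR in the 250 bases searched but outside the 150 shown. Cks1b had CHRs at 17 and 77 and CCAAT boxes at 41 and 89. Uhrf1 had a single CCAAT box, and Mcm5 had CCAAT boxes at 22 and 77 and an E2F site at 149. A promoter was listed for 44 of the 51 members (none for Aurkb, Ccna2, Ccnd1, Ccnd2, Foxm1, Mcm4 and Stmn1). In the 250 bases before the start, the CHR was present in 9 of 21 mitotic promoters (42.9%), 3 of 18 replication promoters (16.7%) and 16.3% of 27025 promoters of all genes. CCAAT was present in 18 of 21 mitotic (85.7%), 12 of 18 replication (66.7%) and 34.5% of all promoters, and an E2F site in 1 of 21 mitotic (4.76%), 3 of 18 replication (16.7%) and 0.673% of all promoters. Among the 5 entry and checkpoint promoters listed, 1 held the CHR, 1 held CCAAT and 0 held an E2F site. These are matches of letters and not measured binding sites.

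At 24 h after bleomycin, Cdk1, the kinase that starts mitosis, was at its lowest level of the series in both strains. In C57BL-6J lungs the Cdk1 intensity was 252 and 229 after saline and 118 and 136 after bleomycin, and in BALB-c lungs it was 212 and 249 after saline and 70.4 and 69.5 after bleomycin. All 4 bleomycin arrays lay below all 4 saline arrays of that time. On the log2(intensity + 92) scale used for all changes, which understates changes of dim genes, the Cdk1 difference between bleomycin and saline was -0.61 ± 0.21 (SE) in C57BL-6J (limma adjusted p = 0.162) and -0.99 ± 0.21 in BALB-c (adjusted p = 0.0595). Averaged over both strains Cdk1 fell by 0.80 ± 0.15 (adjusted p = 0.00692), and it remained called on leaving out any 1 of the 8 arrays (highest adjusted p = 0.043).

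Within a strain no mitotic gene passed the test at 24 h, and most had negative values. Cdc20, an activator of the anaphase-promoting complex, read 556 and 536 after saline and 417 and 397 after bleomycin in C57BL-6J, and 694 and 612 against 381 and 445 in BALB-c. The bleomycin arrays lay below the saline arrays in each strain. Top2a, the topoisomerase that untangles chromosomes, read 43.8 and 118 against 25.7 and 18.6 in C57BL-6J (-0.57 ± 0.32) and differed by -0.10 ± 0.32 in BALB-c. Within C57BL-6J lungs 0 of 42 members were called by limma, against 2.23% of all 8710 probe sets tested, and below an unadjusted p of 0.05 there were 2 positive and 2 negative members. Within BALB-c lungs 0 of 42 were called, against 0.218% of all probe sets, with 3 positive and 4 negative below an unadjusted p of 0.05. Pcna (0.04 in C57BL-6J and 0.28 in BALB-c), Mcm5 (-0.04 and -0.38), Rrm2 (-0.25 and -0.28), Ccnd1 (0.41 and 0.49) and the brighter Mki67 probe set (0.23 and 0.58) were not called. Without C57BL-6J saline b 2 members were called in C57BL-6J, and without BALB-c saline b 1 was called in BALB-c. The C57BL-6J saline arrays of 24 h also had the highest summed markers of alveolar type 2 cells (64459 to 105099, at most 28679 on the other arrays), of airway cells (50509 to 68796, at most 31549) and of erythroid cells (40763 to 69563, at most 16480), and the part of this in the 24 h values was not tested beyond the replacement of these arrays given below.

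By role, 13 of 19 mitotic genes were negative at 24 h in each strain, with medians of -0.24 in C57BL-6J and -0.19 in BALB-c, and 11 of 16 replication genes were negative, with medians of -0.13 and -0.19. The 7 entry and checkpoint genes had medians of -0.22 and -0.13, while the median of all probe sets was 0.04 in both strains. In C57BL-6J both bleomycin arrays lay below both saline arrays for 9 of 19 mitotic and 6 of 16 replication genes, beside 18.8% of all probe sets. In BALB-c they lay below for 6 and above for 5 of 19 mitotic genes, and below for 6 and above for 3 of 16 replication genes, beside 18.7% below and 27.9% above of all probe sets. The plot of gene group means by array shows the 2 C57BL-6J bleomycin arrays at 8.64 and 8.63 for mitotic genes, the lowest values of that panel.

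In the mean of both strains at 24 h 2 of 42 members were called (3.04% of all probe sets), Cdk1 lower and Ccnf higher. Ccnf, a cyclin that serves as the substrate receptor of a ubiquitin ligase, read 835 and 845 in BALB-c lungs after bleomycin and 592 and 499 after saline, and 505 and 475 against 401 and 368 in C57BL-6J. Bleomycin arrays were the higher ones in each strain, and the mean change was 0.42 ± 0.10 (adjusted p = 0.0327), a call lost on leaving out any 1 of the 8 arrays (highest adjusted p = 0.129). Of the members followed in every comparison, Ccnd1 (0.45 ± 0.12, adjusted p = 0.0545), Pcna (0.16), Mcm5 (-0.21), Rrm2 (-0.27) and the brighter Mki67 probe set (0.40) were not called. With the 14 d saline arrays in place of the C57BL-6J saline arrays of 24 h, Cdk1 (-0.81, adjusted p = 0.00493) and Cdc20 (-0.55, adjusted p = 0.021) were called and Ccnf was not.

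**Figure D1:**
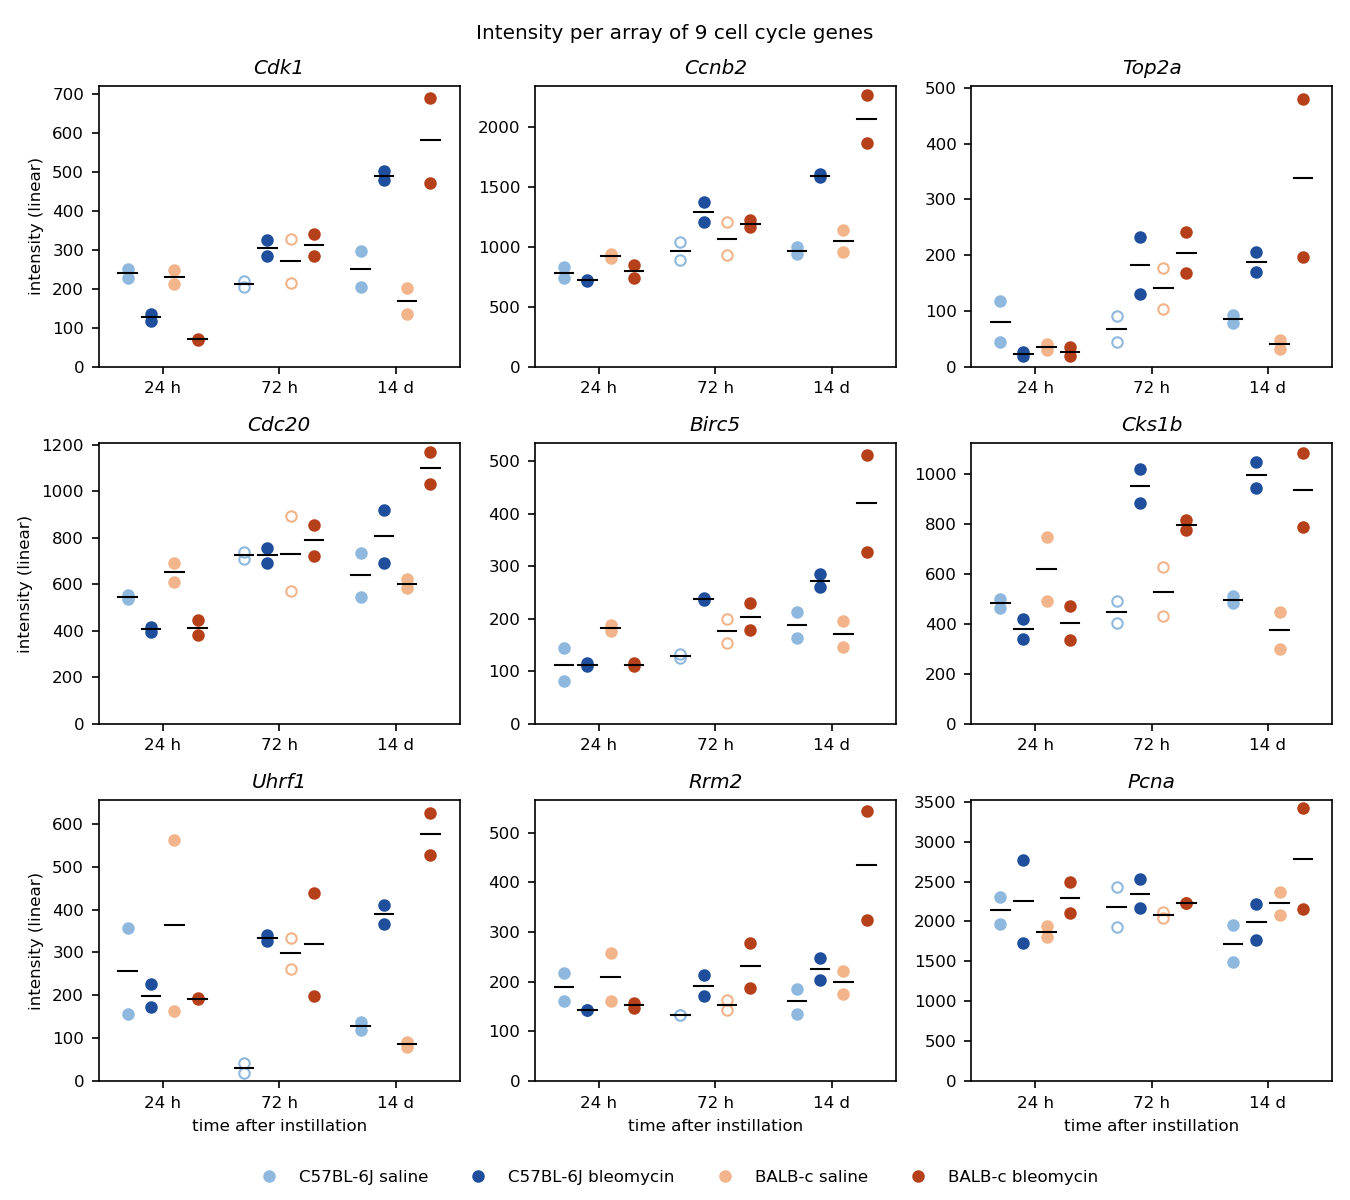
Linear intensity of 9 cell cycle genes (panels) on each of the 24 arrays by time after instillation; points are arrays, horizontal bars are means of the 2 arrays of a group, and open circles mark the saline arrays of 72 h, whose strain labels are in doubt. Cdk1 is lowest on the 24 h bleomycin arrays (69.5 to 136) and highest on the 14 d bleomycin arrays (473 to 690), while Pcna lies between 1489 and 3419 on all 24 arrays.

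At 72 h the median difference of the mitotic genes between bleomycin and saline was 0.22 in C57BL-6J and 0.12 in BALB-c as labelled, 0.25 and 0.23 without the 4 saline arrays, and 0.11 and 0.19 with their strain labels exchanged. As labelled both bleomycin arrays lay above both saline arrays for 10 of 19 mitotic genes in C57BL-6J and below for 2, beside 25.7% above and 28.3% below of all probe sets, and in BALB-c above for 4 and below for 3, beside 23.0% and 23.8%. With the labels exchanged they lay above for 6 and below for 3 in C57BL-6J (26.1% and 23.6% of all probe sets), and above for 9 and below for 3 in BALB-c (20.7% and 24.5%). Which strain had more mitotic genes above saline thus turned with the labels of these arrays.

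Cdk1 at 72 h read 325 and 283 in C57BL-6J and 285 and 342 in BALB-c after bleomycin, against 221 and 205 on the saline arrays labelled C57BL-6J and 329 and 214 on those labelled BALB-c. As labelled the arrays overlapped in BALB-c and not in C57BL-6J, and with exchanged labels they overlapped in C57BL-6J and not in BALB-c. The Cdk1 differences were 0.38 ± 0.21 and 0.17 ± 0.21 as labelled (adjusted p = 0.339 and 0.862), 0.23 and 0.49 without the 4 arrays, and 0.14 and 0.41 with exchanged labels, none of them called. Top2a was at 0.77 in C57BL-6J and 0.36 in BALB-c as labelled, and at 0.23 and 0.90 with exchanged labels, likewise not called. Rrm2 (0.34 and 0.39), Mcm5 (0.28 and 0.33), Pcna (0.10 and 0.10) and the brighter Mki67 probe set (-0.22 and -0.15) were not called in either strain as labelled. Without the 4 arrays Rrm2 was at 0.09 and 0.13 and Mcm5 at -0.03 and -0.30, and these and Pcna and Mki67 were not called under either choice.

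Cks1b, a small subunit of cyclin-dependent kinase complexes that helps degrade the inhibitor p27, was the member called at 72 h in the mean of both strains (1 of 42, beside 3.21% of all probe sets). It read 1019 and 882 after bleomycin and 490 and 405 after saline in C57BL-6J, and 774 and 815 against 627 and 431 in BALB-c. The 4 bleomycin arrays lay above the 4 saline arrays, by 0.74 ± 0.15 (adjusted p = 0.0111). Top2a (0.56 ± 0.22), Cdk1 (0.27 ± 0.15) and Ccnd1 (0.37 ± 0.12) were not called in the mean. Leaving out C57BL-6J bleomycin a, C57BL-6J saline b, BALB-c bleomycin b or BALB-c saline b ended this call (highest adjusted p = 0.0694). Without the 4 saline arrays of 72 h, with the strain's saline arrays of 24 h and 14 d as control, 3 members were called in the mean: Cks1b (0.74, adjusted p = 0.00215), Top2a (0.91, adjusted p = 0.0077) and Ccnb2 (0.39, adjusted p = 0.0081).

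Within C57BL-6J at 72 h, 3 of 42 members rose as labelled (6.61% of all probe sets were called): Uhrf1, which recruits DNA methylation to newly copied DNA, Cks1b, and Ccnd1, the cyclin D1 of G1 phase. Uhrf1 read 42.5 and 18.3 after saline and 340 and 327 after bleomycin (1.80 ± 0.35, adjusted p = 0.00431). Ccnd1 read 2552 and 2357 after saline and 4877 and 4761 after bleomycin (0.95 ± 0.17, adjusted p = 0.00252), and Cks1b differed by 0.95 ± 0.22 (adjusted p = 0.0129). The saline arrays of both Uhrf1 and Ccnd1 here were the lowest of the series or close to it, and they are the arrays whose strain labels are in doubt. Without these 4 arrays Uhrf1 (0.65, adjusted p = 0.25) and Ccnd1 (0.26, adjusted p = 0.354) were not called, while Cks1b (0.84, adjusted p = 0.0148) and Ccnb2 (0.52, adjusted p = 0.0189) were. With the strain labels of the 4 arrays exchanged 0 of 42 were called by limma, with Cks1b at 0.76 (adjusted p = 0.0752). As labelled, Ccnd1 remained called on leaving out any 1 of the 4 arrays, Uhrf1 was lost without saline b, and Cks1b was lost without either bleomycin array or without saline b.

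Within BALB-c at 72 h 0 of 42 members were called by limma (1.32% of all probe sets), with 1 positive and 1 negative below an unadjusted p of 0.05 and Ccnd1 at -0.20 ± 0.17. Without the 4 saline arrays Top2a was called (1.19, adjusted p = 0.0208), and with exchanged labels 0 of 42 were. By role the medians at 72 h in the mean of both strains were 0.14 for mitotic, 0.10 for replication and 0.21 for entry and checkpoint genes, against -0.02 for all probe sets.

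**Figure D2:**
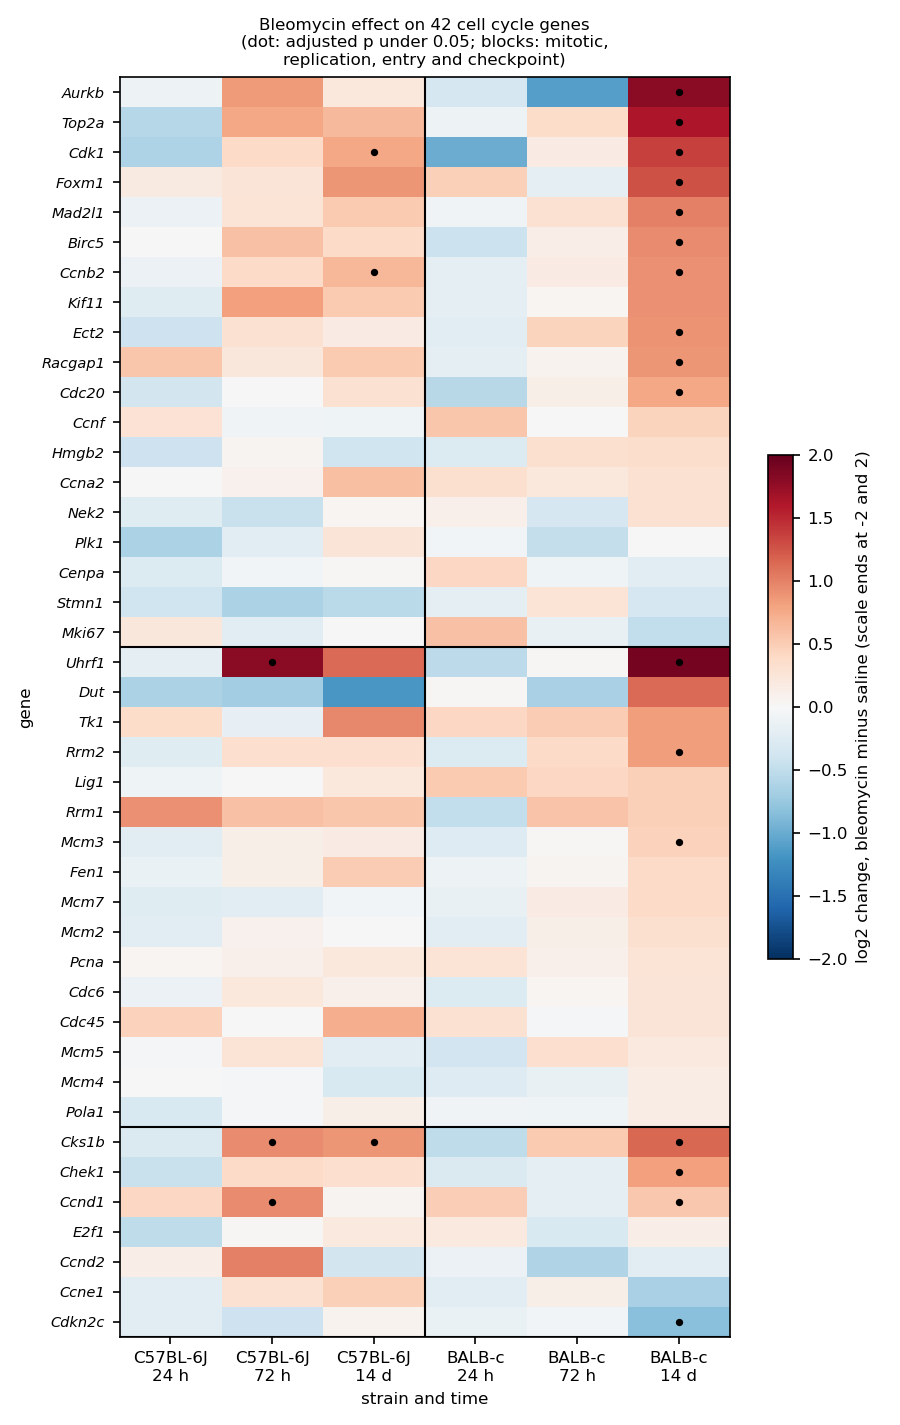
Log2 change between bleomycin and saline (colour, on the log2(intensity + 92) scale) of the 42 tested members in each strain at 24 h, 72 h and 14 d, with dots for an adjusted p under 0.05 and saline arrays of 72 h as labelled. Dots fall mainly in the BALB-c 14 d column, where 17 members are called, against 3 in C57BL-6J at 14 d, 3 in C57BL-6J at 72 h and none at 24 h.

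At 14 d in BALB-c lungs 10 of 19 mitotic genes rose and none fell, with a median change of 0.89, against a median of 0.04 over all probe sets. This median includes Kif11, which through the intensity filter had to be high here. Over all 42 members 17 were called (13.3% of all probe sets), 16 of them higher (7.9% of all probe sets). Cdk1 read 136 and 203 after saline and 473 and 690 after bleomycin, a change of 1.36 ± 0.21 (2.57-fold, adjusted p = 0.00107). Ccnb2, cyclin B2, which activates Cdk1, read 959 and 1139 after saline and 1867 and 2263 after bleomycin (0.92 ± 0.15, adjusted p = 0.00123). For both genes the groups did not overlap, and the bleomycin b array was the higher of its pair.

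Genes of chromosome structure and of the spindle checkpoint were among those called in BALB-c. Top2a read 32.2 and 47.5 after saline and 196 and 480 after bleomycin (1.62 ± 0.32, adjusted p = 0.00413). Mad2l1, which holds back anaphase until chromosomes are attached, read 361 and 295 against 622 and 885 (1.0 ± 0.18, adjusted p = 0.00278), and Cdc20 read 583 and 623 against 1034 and 1168 (0.78 ± 0.18, adjusted p = 0.0119). All bleomycin arrays of these genes lay above the saline arrays, and the b array was again the higher. Birc5, the survivin subunit of the chromosomal passenger complex, read 146 and 195 against 328 and 513 (0.95 ± 0.21, adjusted p = 0.00964). Aurkb, the kinase of that complex, read 76.2 and 85.0 against 527 and 499 (1.81 ± 0.44, adjusted p = 0.0141), a 3.50-fold change on the offset scale.

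Regulators of cytokinesis and the transcription factor of the mitotic genes were called too. Foxm1 read 1403 and 667 after saline and 2626 and 2334 after bleomycin (1.27 ± 0.28, adjusted p = 0.00913). Racgap1, of the centralspindlin complex, read 158 and 212 against 389 and 450 (0.89 ± 0.22, adjusted p = 0.0164). Ect2, the exchange factor that activates RhoA at the cleavage furrow, read 237 and 249 against 469 and 608 (0.90 ± 0.22, adjusted p = 0.013). The saline and bleomycin arrays did not overlap for any of these 3 genes. Across the mitotic list, both bleomycin arrays lay above both saline arrays for 14 of 19 genes and below for 2, beside 32.2% above and 26.7% below of all probe sets. The genes not called were Ccna2, Ccnf, Cenpa, Hmgb2, Kif11, Mki67, Nek2, Plk1 and Stmn1, whose changes ran from -0.50 ± 0.31 (the brighter Mki67 probe set) to 0.92 ± 0.31 (Kif11, a spindle motor). Kif11 passed the intensity filter through the 2 BALB-c bleomycin arrays of 14 d alone and so had to be high there. Its values are given as a description, and it is among the 14 genes above saline.

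Of the replication genes in BALB-c at 14 d, 3 of 16 rose (7.9% of all probe sets called higher), with a median of 0.38. All 16 values were positive by the brightest probe set of each gene. A second Mcm5 probe set was negative, at -0.98 ± 0.34 (limma adjusted p = 0.0636). Uhrf1 read 91.6 and 79.1 after saline and 526 and 624 after bleomycin (1.91 ± 0.35, adjusted p = 0.00307). Rrm2, the small subunit of ribonucleotide reductase, read 222 and 175 against 324 and 544 (0.83 ± 0.23, adjusted p = 0.0262). Mcm3, of the replicative helicase, read 755 and 728 against 947 and 1172 (0.46 ± 0.14, adjusted p = 0.0403). Groups were separate for all 3 genes, with the b array the higher after bleomycin. Pcna, the sliding clamp, read 2083 and 2373 after saline and 2157 and 3419 after bleomycin, so that its groups overlapped (0.28 ± 0.22, adjusted p = 0.436). Mcm5 was at 0.20 ± 0.17 (adjusted p = 0.465), and both bleomycin arrays lay above both saline arrays for 10 of 16 replication genes, beside 32.2% of all probe sets.

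Of the entry and checkpoint genes in BALB-c at 14 d, 3 of 7 rose and 1 fell (13.3% of all probe sets called, 7.9% higher). Cks1b read 448 and 299 after saline and 786 and 1083 after bleomycin (1.15 ± 0.22, adjusted p = 0.00347). Chek1, a kinase of the replication checkpoint, read 154 and 210 against 349 and 432 (0.82 ± 0.26, adjusted p = 0.0436), and Ccnd1 read 2819 and 2695 against 4184 and 3901 (0.54 ± 0.17, adjusted p = 0.0482). Cdkn2c, an inhibitor of the cyclin D kinases, read 1794 and 1978 against 1082 and 966 and fell by 0.83 ± 0.20 (adjusted p = 0.0131). The groups of these 4 genes did not overlap. Ccnd2, Ccne1 and E2f1 were not called (-0.22, -0.65 and 0.14).

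The number of calls in BALB-c at 14 d rested on single arrays. Without the bleomycin b array, the brighter for most of these genes, 3 of the 17 members remained called, namely Cdk1, Ccnb2 and Uhrf1. Omitting bleomycin a kept 15 of the 17 (Chek1 and Ccnd1 lost), omitting saline a kept 7 and omitting saline b kept 6. Cdk1 (highest adjusted p = 0.0257), Ccnb2 (0.0257) and Uhrf1 (0.0434) remained called on leaving out any 1 of the 4 arrays.

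In C57BL-6J lungs at 14 d 3 of 42 members rose and none fell (7.43% of all probe sets called, 3.11% higher): Cdk1, Ccnb2 and Cks1b. Cdk1 read 205 and 297 after saline and 479 and 502 after bleomycin (0.78 ± 0.21, 1.71-fold, adjusted p = 0.0327), and Ccnb2 read 1000 and 937 against 1606 and 1578 (0.67 ± 0.15, adjusted p = 0.0104). Cks1b read 482 and 510 against 1047 and 943 (0.88 ± 0.22, adjusted p = 0.02). The groups of these 3 genes did not overlap. Uhrf1 (119 and 137 after saline, 411 and 367 after bleomycin) was at 1.13 ± 0.35 (adjusted p = 0.0621) and Foxm1 (1280 and 1287, 2303 and 2575) at 0.88 ± 0.28 (adjusted p = 0.0687). These were separate between groups but not called. None of the 3 calls survived the omission of bleomycin a. Omitting bleomycin b lost Cdk1, omitting saline a lost Cdk1 and Cks1b, and omitting saline b lost Ccnb2 and Cks1b (highest adjusted p of Cdk1, Ccnb2 and Cks1b 0.211, 0.0955 and 0.177). Array weights ended all 3 calls, and 8 members were called against a control that pooled saline of 24 h with saline of 14 d, these 3 among them.

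By role in C57BL-6J at 14 d, 2 of 19 mitotic, 0 of 16 replication and 1 of 7 entry genes were called by limma (7.43% of all probe sets). At an unadjusted p under 0.05, 3 replication genes were higher and 1 lower. The medians were 0.30, 0.19 and 0.20, against -0.07 over all probe sets, and 33 of 42 members were positive. Both bleomycin arrays lay above both saline arrays for 9 of 19 mitotic and 7 of 16 replication genes, beside 17.1% of all probe sets. Top2a (0.65 ± 0.32), Rrm2 (0.33), Pcna (0.21), Mcm5 (-0.21), Ccnd1 (0.06) and the brighter Mki67 probe set (-0.01) were not called. Stmn1, which destabilises microtubules and is also made in non-dividing cells, was the lowest mitotic member, at -0.54 ± 0.20 (adjusted p = 0.122).

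In the mean of both strains at 14 d 18 of 42 members were called, all higher, beside 12.1% of all probe sets called and 7.12% called higher. They were 11 of 19 mitotic genes, 5 of 16 replication genes and 2 of 7 entry and checkpoint genes, with medians of 0.54, 0.28 and 0.17 and a median of -0.03 over all probe sets. Kif11 is in these counts although it passed the intensity filter through the BALB-c bleomycin pair alone and so had to be high there. Ccnb2 (0.79 ± 0.10, adjusted p = 1.62e-04), Cdk1 (1.07 ± 0.15, adjusted p = 3.12e-04) and Cks1b (1.01 ± 0.15, adjusted p = 5.82e-04) had the smallest p-values, followed by Uhrf1 (1.52), Mad2l1 (0.76), Foxm1 (1.07) and Top2a (1.14). Each of these 7 and Racgap1 (0.71) remained called on leaving out any 1 of the 8 arrays. Birc5 (0.67), Cdc20 (0.54), Ect2 (0.53), Aurkb (1.01), Kif11 (0.72), Rrm2 (0.58), Mcm3 (0.31), Fen1, the flap endonuclease of lagging-strand synthesis (0.44), Tk1, thymidine kinase (0.90), and Chek1 (0.58) were called with all arrays and lost on leaving out at least 1 of them. Pcna (0.24), Ccnd1 (0.30), Mcm5 (adjusted p = 0.992) and the brighter Mki67 probe set (-0.25) were not called. Without BALB-c bleomycin b 8 of the 18 remained called, and without either BALB-c saline array 10. Without either array of C57BL-6J bleomycin 12 remained, and without either of C57BL-6J saline 11.

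**Figure D3:**
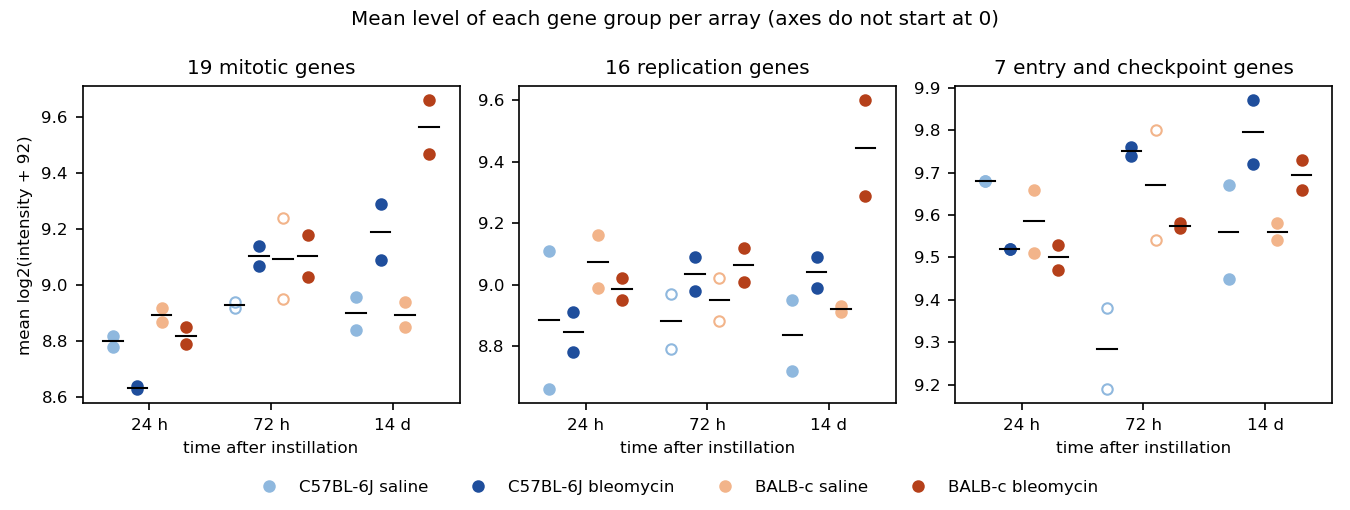
Mean log2(intensity + 92) of the 19 mitotic, 16 replication and 7 entry and checkpoint genes tested, on each array by time; points are arrays, bars are means of the 2 arrays, open circles mark the saline arrays of 72 h, and the axes do not start at 0. The mitotic mean is lowest on the C57BL-6J bleomycin arrays of 24 h (8.64 and 8.63) and highest on the BALB-c bleomycin arrays of 14 d (9.47 and 9.66). It includes Kif11, which through the intensity filter had to be high on the latter arrays.

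Compared directly after bleomycin, the strains differed in 7 of 42 members at 14 d (15.7% of all probe sets), 6 of them lower in C57BL-6J. The share of members called was near that of all probe sets, so the genes are given as a description. Hmgb2, a chromatin protein abundant in dividing cells, read 126 and 213 in C57BL-6J and 503 and 857 in BALB-c (-1.54 ± 0.29, adjusted p = 0.00307). Ect2 read 164 and 283 against 469 and 608 (-1.01 ± 0.22, adjusted p = 0.00652). The other members lower in C57BL-6J were Mcm2 (-0.59 ± 0.16) and Mcm4 (-0.57 ± 0.19) of the helicase, Rrm2 (-0.70 ± 0.23) and Ccnf (-0.44 ± 0.15), with adjusted p-values from 0.0194 to 0.0499. Ccnd2, cyclin D2, was higher in C57BL-6J, with 720 and 892 against 411 and 235 (1.14 ± 0.31, adjusted p = 0.0203). The strains did not overlap in Hmgb2, Ect2 or Ccnd2.

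At 14 d 34 of 42 members were lower in C57BL-6J after bleomycin, with a median of -0.32, while the median of all probe sets was -0.12. The 42 include Kif11, which through the intensity filter had to be high in BALB-c here. None of the 7 calls remained without BALB-c bleomycin b or without C57BL-6J bleomycin a, and 5 remained without the other array of either pair. Array weights ended all 7 calls, and quantile normalization ended those of Rrm2, Mcm4, Mcm2 and Ccnf. Cdk1 (479 and 502 in C57BL-6J, 473 and 690 in BALB-c) overlapped between the strains. Ccnb2 (1606 and 1578 against 1867 and 2263) was at -0.35 ± 0.15 (adjusted p = 0.107).

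Hmgb2 also differed in the same direction after saline at 14 d, where it read 190 and 319 in C57BL-6J and 562 and 441 in BALB-c, although this was not called. After saline at 14 d 4 of 42 members differed between the strains (14.8% of all probe sets), and all 4 were entry genes. Ccnd2 (1206 and 941 in C57BL-6J, 336 and 426 in BALB-c, 1.30 ± 0.31, adjusted p = 0.0101) and Ccnd1 (0.64 ± 0.17, adjusted p = 0.0194) were higher in C57BL-6J. Cdkn2c (1147 and 642 against 1794 and 1978, -1.05 ± 0.20, adjusted p = 0.00256) and Ccne1, cyclin E1 (543 and 438 against 1015 and 865, -0.83 ± 0.25, adjusted p = 0.0362), were lower. Cdkn2c remained called on leaving out any 1 of the 4 arrays. Leaving out C57BL-6J saline a or BALB-c saline a left 1 of the 4 calls, and leaving out BALB-c saline b left 2. After saline at 24 h 0 of 42 members were called by limma (2.5% of all probe sets), with 2 higher and 5 lower in C57BL-6J at an unadjusted p under 0.05. Without C57BL-6J saline b 4 were called.

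The difference between the strains in the bleomycin effect, tested as an interaction, called 1 of 42 members at 14 d (7.43% of all probe sets). This was Dut, the dUTPase that keeps uracil out of DNA, which read 156 and 311 after saline and 54.5 and 43.6 after bleomycin in C57BL-6J, and 74.1 and 58.8 against 210 and 311 in BALB-c. The bleomycin arrays were the lower ones in C57BL-6J and the higher ones in BALB-c, and the difference was -2.31 ± 0.66 (adjusted p = 0.0433). Dut varied widely within other pairs (50.8 and 365 on the C57BL-6J bleomycin arrays of 72 h), and its call was lost on leaving out any 1 of the 8 arrays except BALB-c bleomycin a (highest adjusted p = 0.147).

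For the mitotic genes the 14 d interaction was negative in 15 of 19, with a median of -0.40 beside -0.10 over all probe sets, and 0 were called by limma. Kif11, which had to be high in BALB-c after bleomycin at 14 d, is among these 19. At an unadjusted p under 0.05, 4 were lower in C57BL-6J and none higher. Cdk1 was at -0.58 ± 0.30 (adjusted p = 0.243), Top2a at -0.98 ± 0.45 (0.191), Aurkb at -1.60 ± 0.63 (0.126) and Ect2 at -0.74 ± 0.31 (0.149). So the larger number of calls in BALB-c at 14 d was not accompanied by a called interaction in any mitotic gene. Compared directly after bleomycin, the mitotic genes Hmgb2, Ect2 and Ccnf were called lower in C57BL-6J, as given above. Replication genes had an interaction median of -0.28.

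At 24 h the interaction called 0 of 42 members by limma (0.023% of all probe sets), with 2 positive and 1 negative below an unadjusted p of 0.05. Compared directly after bleomycin at 24 h, 1 of 42 members differed (1.87% of all probe sets): Ccnf was lower in C57BL-6J (505 and 475 against 835 and 845, -0.68 ± 0.15, adjusted p = 0.0202), although leaving out any 1 of the 4 arrays ended the call (highest adjusted p = 0.186). At 72 h 1 member differed (1.64% of all probe sets): Stmn1 read 3470 and 4048 in C57BL-6J and 7148 and 6285 in BALB-c (-0.82 ± 0.20, adjusted p = 0.0495), and this call too was lost without any 1 of the 4 arrays (highest adjusted p = 0.415). The groups did not overlap for Ccnf at 24 h or Stmn1 at 72 h.

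At 72 h the interaction called 1 of 42 members as labelled (3.08% of all probe sets). This was Ccnd1, whose bleomycin effect was larger in C57BL-6J by 1.15 ± 0.24 (adjusted p = 0.0111). It read 2552 and 2357 on the saline arrays labelled C57BL-6J and 4604 and 4029 on those labelled BALB-c, whereas the bleomycin arrays read 4877 and 4761, and 3602 and 3881. With the strain labels of the 4 saline arrays exchanged the Ccnd1 difference was -0.43 (adjusted p = 0.84), and without those arrays it was -0.13 (adjusted p = 0.815). The direction thus rests on arrays that go against their strain labels. The call was also lost on leaving out 3 of the 8 arrays in turn (highest adjusted p = 0.0637).

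**Figure D4:**
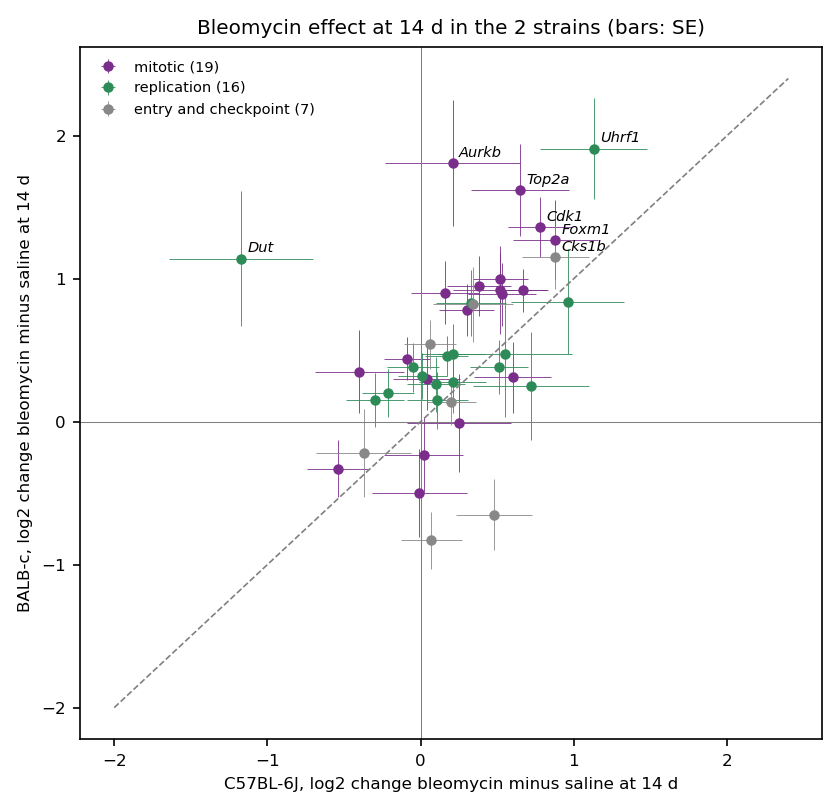
Log2 change between bleomycin and saline at 14 d in BALB-c (vertical) against C57BL-6J (horizontal) for the 42 tested members, with bars for the SE from the model and a dashed line of equal change; the saline arrays of the 2 strains are separate. Most mitotic genes lie above the line, Uhrf1 is high in both strains (1.13 and 1.91), and Dut has opposite signs (-1.17 and 1.14). The mitotic genes include Kif11, which through the intensity filter had to be high in BALB-c after bleomycin.

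The time course within bleomycin lungs, which uses no saline arrays, had the lowest mean of the mitotic genes at 24 h. The arrays of 24 h also differ from the later ones by the unexplained number in their titles. Its part in the differences from 24 h cannot be told apart from time. In C57BL-6J 7 of 42 members were higher at 14 d than at 24 h and none was lower (8.67% of all probe sets called, 3.85% higher), 6 of them mitotic. Cdk1 went from 118 and 136 to 479 and 502 (1.41 ± 0.21, adjusted p = 5.35e-04) and Ccnb2 from 724 and 716 to 1606 and 1578 (1.05 ± 0.15, adjusted p = 3.21e-04). Top2a (1.29 ± 0.32), Cks1b (1.21 ± 0.22), Cdc20 (0.84), Birc5 (0.83) and Mad2l1 (0.72) also rose. Replication genes had 0 of 16 called by limma, with 2 higher at an unadjusted p under 0.05. Cdk1, Ccnb2 and Cks1b remained called on leaving out any 1 of the 4 arrays, and without either 24 h array they were the 3 members called.

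In BALB-c 14 of 42 members were higher at 14 d than at 24 h (7.66% of all probe sets called, 4.26% higher): 10 mitotic, 2 replication and 2 entry genes. Cdk1 went from 70.4 and 69.5 to 473 and 690 (2.04 ± 0.21, 4.11-fold, adjusted p = 1.81e-04), and Ccnb2 from 743 and 848 to 1867 and 2263 (1.28 ± 0.15, adjusted p = 1.81e-04). Cdc20 (1.24 ± 0.18), Birc5 (1.30 ± 0.21), Top2a (1.78 ± 0.32), Aurkb (1.77 ± 0.44), Ect2 (1.1), Hmgb2 (1.15), Racgap1 (0.95), Mad2l1 (0.94), Rrm2 (1.07), Uhrf1 (1.23), Cks1b (1.05) and Chek1 (0.99) rose too. Cdk1, Ccnb2 and Cdc20 remained called on leaving out any 1 of the 4 arrays. The count fell to 3 without the 14 d b array, to 8 without the 24 h a array and to 5 without the 24 h b array, and was 15 without the 14 d a array.

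Part of this rise was in place by 72 h. In BALB-c 6 of 42 members differed between 72 h and 24 h (5.2% of all probe sets): Cdk1 (1.32 ± 0.21, adjusted p = 0.00416), Top2a (1.32 ± 0.32), Cks1b (0.85), Cdc20 (0.80) and Ccnb2 (0.54) were higher at 72 h, and Ccnf was lower (-0.83 ± 0.15, adjusted p = 0.00735). In C57BL-6J 2 of 42 were higher at 72 h (0.448% of all probe sets), Cks1b (1.15 ± 0.22) and Ccnb2 (0.77 ± 0.15), each with an adjusted p of 0.0287. Leaving out any 1 of the 4 arrays ended both calls in C57BL-6J, and left at most 2 of the 42 called in BALB-c (2 without 24 h a, 1 without 72 h a, 0 without either b array).

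From 72 h to 14 d, 3 of 42 members rose in BALB-c (2.64% of all probe sets). Ccnb2 went from 1166 and 1219 to 1867 and 2263 (0.74 ± 0.15, adjusted p = 0.0146), Foxm1 from 884 and 1003 to 2626 and 2334 (1.31 ± 0.28, adjusted p = 0.0264) and Aurkb from 83.3 and 95.6 to 527 and 499 (1.74 ± 0.44, adjusted p = 0.0461). The times did not overlap for any of these 3 genes. Without the 14 d b array or either 72 h array 0 of 42 were called, and without the 14 d a array 5 were. In C57BL-6J 0 of 42 were called by limma between 72 h and 14 d (4.39% of all probe sets), with 4 positive and 1 negative below an unadjusted p of 0.05, and 1 was called without the 14 d b array.

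Of the members' probe sets, 16 were not the brightest of their gene and 9 of these were tested. For Mki67, the Ki-67 antigen of dividing cells, the brighter probe set and a dimmer one disagreed: the dimmer read 155 and 195 after saline and 346 and 1044 after bleomycin in BALB-c at 14 d (1.40 ± 0.33, adjusted p = 0.0118), and the brighter 406 and 485 against 377 and 213. The dimmer Mki67 probe set was also called in the 14 d mean of both strains (1.05 ± 0.23), from 24 h to 14 d in both strains (1.21 in C57BL-6J, 2.14 in BALB-c) and from 24 h to 72 h in BALB-c (1.20). At 24 h it read 85.9 and 101 in C57BL-6J and 83.0 and 53.5 in BALB-c after bleomycin, its lowest values. A second probe set of Plk1, a mitotic kinase, rose in BALB-c at 14 d (1.19 ± 0.34), where the brighter one was at -0.01. A probe set shared by Tyms, thymidylate synthase, and Tyms-ps rose there too (0.94 ± 0.27, and 0.67 ± 0.19 in the mean of both strains). A second Mcm5 probe set fell in BALB-c from 72 h to 14 d (-1.36 ± 0.34, adjusted p = 0.0445), where the brighter one was not called. Other second probe sets were not called where the brighter one was. The second of Ccnd1 was at -0.05 ± 0.22 in BALB-c at 14 d and at 0.39 ± 0.22 in C57BL-6J at 72 h as labelled. Its strain difference was 0.55 ± 0.32 in the bleomycin effect at 72 h and 0.03 ± 0.22 after saline at 14 d. In the 14 d mean of both strains the second of Tk1 was at 0.28 ± 0.41 and that of Mcm3 at 0.42 ± 0.15.

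Other genes of the same processes, chosen by function with earlier results known, were read in the same way. Of 25 further mitotic genes 8 rose in BALB-c at 14 d, 3 in C57BL-6J and 7 in the mean of both strains, and none fell, beside 7.9%, 3.11% and 7.12% of all probe sets called higher. The calls in the mean with the smallest p were Kif22 (1.02 ± 0.15), a chromosome-binding motor, Anln, the cytokinesis scaffold anillin (1.23 ± 0.20), Cks2 (0.98 ± 0.21) and Pttg1, securin (0.61 ± 0.15). Of 26 further replication and repair genes 2 rose and 1 fell in BALB-c (Pold1 0.80, Pold2 1.1 and Msh6 -0.79), 0 were called by limma in C57BL-6J (2 positive and 2 negative below an unadjusted p of 0.05) and 1 rose in the mean (Brca2, 0.81). Of a further list of 13 genes, which holds cyclins, kinases and the transcription factor Myc, 1 rose in BALB-c (Cdk5, 0.73) and 1 in the mean (Myc, 0.63). At 24 h Gtse1 (1.56 ± 0.32) and Ckap2 (1.14 ± 0.18), mitotic genes that p53 is also known to regulate, were higher in the mean of both strains and Gmnn, the inhibitor of replication licensing, was lower (-0.66 ± 0.15).

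Of 17 brakes on the cell cycle tested, Cdkn1a and Ccng1 rose and Plk3 fell in the mean of both strains at 24 h, beside 3.04% of all probe sets called. Cdkn1a, the p21 inhibitor, read 663 and 642 after saline and 3086 and 4035 after bleomycin at 24 h in C57BL-6J, and 482 and 1194 against 2307 and 2424 in BALB-c. The groups did not overlap in either strain. Cdkn1a differed from saline at 24 h by 2.28 ± 0.27 in C57BL-6J and 1.52 ± 0.27 in BALB-c (adjusted p = 1.74e-04 and 0.0298), at 72 h by 1.42 and 1.61 as labelled and at 14 d by 0.87 (adjusted p = 0.0638) and 1.20 (adjusted p = 0.01). The C57BL-6J difference at 24 h was 1.23 (adjusted p = 0.0153) against the saline arrays of 14 d, where Cdkn1a read 1426 and 1476. At 72 h the Cdkn1a differences were 1.11 and 1.56 without the 4 saline arrays, both called. Exchanging their strain labels gave 1.68 and 1.35, and the call in BALB-c was lost. Ccng1, cyclin G1, another p53 target, rose by 2.02 ± 0.21 and 1.47 ± 0.21 at 24 h. Of the 17 brakes 3 rose in the mean at 72 h (Cdkn1a, Ccng1 and Gadd45g, beside 3.21% of all probe sets called) and 4 rose at 14 d (these 3 and Cdkn2b, 0.36, beside 7.12% called higher). The Plk3 probe set ranged from 0.0509 to 7991 among all arrays.

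Markers of other cell types moved at 14 d as well. In the mean of both strains 6 of 7 macrophage markers (Msr1 1.52, Cd68 1.24) and 4 of 6 fibroblast markers (Col1a1 0.65, Col3a1 0.62) were higher. Lower were 3 of 6 endothelial, 2 of 5 B cell and 3 of 5 heart markers, beside 12.1% of all probe sets called and 7.12% called higher. The summed macrophage markers ran from 16492 to 21810 in C57BL-6J and from 12556 to 15512 in BALB-c after bleomycin (12802 to 14094 and 14867 to 15776 after saline). This sum was thus above saline in C57BL-6J and overlapped it in BALB-c. The summed fibroblast markers were 25052 to 40012 in C57BL-6J and 18527 to 24003 in BALB-c (21352 to 23455 and 15360 to 17388 after saline), and the sum of 3 alveolar type 2 markers of the lung ran from 222 to 1241 in BALB-c and from 2466 to 28679 in C57BL-6J after bleomycin (4385 to 6039 and 576 to 2213 after saline). The summed neutrophil and marrow markers were 7430 to 8541 in BALB-c and 6812 to 11301 in C57BL-6J after bleomycin, above the 4900 to 5030 and 4180 to 4759 after saline, and 1 of 5 tested was called in the mean (Ltf, higher). Summed T cell markers were 592 to 811 in C57BL-6J and 1272 to 1519 in BALB-c after bleomycin (1089 to 1177 and 1263 to 1562 after saline). Summed airway markers were 9905 to 23413 and 4017 to 5863 (5555 to 13213 and 11218 to 11863 after saline), in the same order of strains. Summed erythroid markers were 5084 to 8319 and 3436 to 3858 (4827 to 5931 and 4988 to 5392 after saline). The part of these cell types in the results of 14 d was not tested.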

How the data were processed

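The deposited table holds signal intensity per probe set on 24 Affymetrix arrays. The authors' steps to that intensity are not given in the sources used here, but the mean of each array, trimmed at percentiles 2 and 98, was 799.9 throughout, so each array had been scaled alike. Probe sets were named through GEO's platform annotation, and promoters came from RefSeq (GRCm38.p6). Of 12488 probe sets, 66 controls were left out and 8710 with an intensity above 225.7 (the 40th percentile) on at least 2 arrays were tested. Values were log2(intensity + 92), fitted with limma 3.58.1 (R 4.3.3) in a model of 12 groups with 12 residual degrees of freedom and a variance trend. P-values were adjusted by Benjamini-Hochberg over all probe sets tested in each of 23 comparisons and called under 0.05. Each gene was read by its brightest probe set of its own. Members called were named (all or the 12 with the smallest p, and in places more), as were Cdk1, Top2a, Mki67, Pcna, Mcm5, Rrm2, Ccnd1 and Cdkn1a, and up to 4 called genes per further list. The members and lists were chosen with earlier results of these data known. The fit was tested on simulated data. Alternatives were other filters, offsets, normalization, variance model, array weights, probe set rule, controls, the array letter as a block and each array left out.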

Additional observations from a re-analysis of the deposited data

Results flagged for a closer look

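The bleomycin effect on Ccnd1 at 72 h differed between the strains by 1.15 on the log2 scale, and the test of this difference passed with the saline arrays of 72 h as labelled. Those arrays go against their strain labels, and the difference turned negative without them or with the labels exchanged. The bleomycin effect on Dut at 14 d differed between the strains by -2.31, and the test of this difference passed with all arrays. Dut intensities also lay far apart within several pairs of arrays.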

How the results depend on the processing

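With 2 arrays a group, counts of called members moved with single arrays. Leaving out 1 array gave 0 to 2, 1 to 4 and 0 to 3 called for bleomycin against saline in C57BL-6J at 24 h, 72 h and 14 d, 0 to 1 and 3 to 15 in BALB-c at 24 h and 14 d, and 1 to 2, 0 to 2 and 8 to 16 in the mean of both strains at 24 h, 72 h and 14 d. It gave 0 at 24 h, 0 at 72 h and 0 to 8 at 14 d for the strains after bleomycin, 0 to 2 and 0 to 3 for the difference in effect at 72 h and 14 d, 0 to 4 and 1 to 4 for the strains after saline at 24 h and 14 d, 0, 0 to 1 and 3 to 6 for 72 h against 24 h, 14 d against 72 h and 14 d against 24 h in C57BL-6J, and 0 to 2, 0 to 5 and 3 to 15 for these in BALB-c. For single genes, 255 of 500 called values stayed called on leaving out an array and 245 were lost, while 3 of 284 not called became called. Under the other alternatives 829 of 912 called values stayed called and 83 were lost, and 16 of 538 not called became called. Of those lost 2 reversed, both Ccnd1 in the difference between strains at 72 h: -0.43 with the strain labels of the saline 72 h arrays exchanged and -0.13 without those arrays. These settings gave 0 and 0 called for that difference, exchanging gave 0 in C57BL-6J at 72 h, and leaving those arrays out gave 1 in BALB-c and 3 in the mean at 72 h.

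The arrays a and b share only a letter (correlations of deviations from -0.285 to 0.309, 14 of 66 over 0.1). With the letter as a replicate block 4, 16 and 17 members were called at 14 d in C57BL-6J, BALB-c and the mean, 2 in the mean at 72 h, 0 for the strains after bleomycin at 72 h, and 3 and 0 for the difference in effect at 72 h and 14 d. Array weights gave 5 and 0 in C57BL-6J at 72 h and 14 d, 3 and 10 in the mean at 72 h and 14 d, 3, 2 and 0 for the strains after bleomycin at 24 h, 72 h and 14 d, 5 and 0 for the difference in effect at 72 h and 14 d, 8 for 72 h against 24 h in C57BL-6J, and 10 and 1 for 72 h against 24 h and 14 d against 72 h in BALB-c. Pooled saline arrays of 24 h and 14 d gave 8 in C57BL-6J at 14 d, 2 in BALB-c at 24 h and 4 in the mean at 24 h.

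The 60th percentile filter, which tests fewer genes, gave 8 in BALB-c and 7 in the mean at 14 d, 3 for the strains after bleomycin at 14 d, 2 for the difference in effect at 72 h, 1 for the strains after saline at 24 h and 4 for 14 d against 24 h in BALB-c. No filter gave 1 in the mean at 24 h, 0 and 4 for the strains after bleomycin at 72 h and 14 d and 0 for the difference in effect at 14 d. Quantile normalization gave 1 in BALB-c and 4 in the mean at 24 h, 0 and 4 for the strains after bleomycin at 72 h and 14 d, and 2 for the difference in effect at 14 d. The mean over probe sets gave 1 in BALB-c at 24 h, 0 for the strains after bleomycin at 72 h, 2 for the difference in effect at 72 h and 6 for 14 d against 72 h in BALB-c. No variance trend gave 1, 0 and 5 for BALB-c at 24 h, the strains after bleomycin at 72 h and 14 d against 72 h in BALB-c. The smaller offset gave 1 in BALB-c at 24 h, 2 in the mean at 72 h, 0 for the strains after bleomycin at 72 h and 2 for the difference in effect at 72 h, and the larger gave 2 and 0 for that difference at 72 h and 14 d, 1 for the strains after saline at 24 h and 5 for 14 d against 72 h in BALB-c. Apart from the exchanged or omitted arrays and the smaller number of genes tested, the cause of these moves was not tested. Dim members such as Top2a and Aurkb lie near the filter, where the offset shrinks a change.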
